A study of Mus musculus with 9 samples.

Results

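The 37 genes of the mouse mitochondrial genome were described in brain RNA of 9 mice. They were taken as every gene whose symbol starts with mt-, out of 38621 genes with deposited values, and all 37 lie on the chromosome named MT. The set held 13 mRNA genes, 2 rRNA genes, and 22 tRNA genes, and each class was kept apart.

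Mitochondria keep a small circular genome of their own. Its mRNAs encode core subunits of complexes I, III, IV, and V of the respiratory chain, and its rRNAs and tRNAs serve the ribosome that translates these mRNAs inside the organelle. Both strands are transcribed as long precursors, which are cut mostly at the tRNAs that lie between the other genes. Neurons depend on this chain for ATP, and the remaining subunits, together with every protein that transcribes, processes, and translates mitochondrial RNA, are encoded in the nucleus.

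All 9 mice were male C57BL/6 mice divided into sham, ICH, and feb groups of 3, and the source of the RNA is given as brain tissue. ICH is intracerebral hemorrhage, modeled by injecting a mouse's own blood into its brain. The feb mice were given febuxostat, an inhibitor of xanthine oxidase, by gavage before the blood was injected, so the feb and ICH mice both received the blood. The labels call the sham mice untreated, while the study's text describes a saline injection, and the dissected region and the time after injection are not given for these samples. Total RNA was depleted of rRNA, cDNA molecules were marked with UMIs, and the authors deposited RPKM, the reads of a gene scaled to its exon length and to the reads counted in that sample. Between 23065757 and 29538009 reads per mouse were counted on genes.

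Markers of the labeled tissue were present in every mouse. The summed RPKM of 5 neuronal markers (Rbfox3, Snap25, Syt1, Nefl, and Map2) ranged from 619.6 to 915, and that of 5 astrocyte markers from 380.2 to 448. Of the 5 neuronal markers 2 rose in ICH against sham (unadjusted p under 0.05, beside 7.88% of all genes tested), and their summed levels were 624.6 to 915 (sham), 630 to 688 (ICH), and 619.6 to 746 (feb). Of the astrocyte markers 1 rose in ICH against sham and 1 fell in feb against sham, and of 5 endothelial markers 2 fell in feb against ICH and 2 in feb against sham, where 6.16% and 2.90% of all genes fell. None of 5 oligodendrocyte markers was called. All 8 choroid plexus markers fell in feb against ICH and in feb against sham, and their summed levels were 365 to 1035 (sham), 458 to 967 (ICH), and 30.6 to 88.4 (feb). Of 5 blood markers, 4 fell in feb against ICH and 3 in feb against sham, with summed levels of 32.3 to 40.6 (sham), 26.7 to 124 (ICH), and 17.1 to 21.6 (feb). Of 5 microglia markers, 1 rose in ICH against sham and 3 fell in feb against ICH. The part of these cell types in the results on mitochondrial genes was not tested, and in whole tissue fewer cells of a type and less RNA per cell cannot be told apart. One feb mouse, feb 2, had the lowest value of the 9 mice in 13 of 36 mitochondrial genes and the highest in 7.

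Deposited levels differed widely along the mitochondrial genome (build GRCm38). On the scale per length, mt-Co1 (MT:5328-6872), the catalytic subunit of complex IV, had the highest mean level of the 37 genes, at 3036 RPKM over the 9 mice. Its RPKM was 2551, 3368 and 2697 (sham 1 to 3), 3273, 3417 and 3596 (ICH 1 to 3), and 3179, 2374 and 2874 (feb 1 to 3). mt-Nd6 (MT:13552-14070), a complex I subunit and the single mRNA gene on the minus strand, came second with a mean of 1812. The complex I subunit mt-Nd1 (MT:2751-3707) had a mean of 1660.2. The means of mt-Nd5, mt-Nd4, and mt-Cytb were 1405, 1351, and 1342, and the 3 genes did not differ beyond the spread of their samples.

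The remaining complex I genes with high values, and mt-Cytb, had these levels. mt-Nd5 had an RPKM of 1333, 1458 and 1424 (sham 1 to 3), 1397, 1276 and 1413 (ICH 1 to 3), and 1473, 1445 and 1430.2 (feb 1 to 3). mt-Nd4 had 1185, 1512 and 1286 (sham 1 to 3), 1405, 1324 and 1453 (ICH 1 to 3), and 1426, 1309 and 1261 (feb 1 to 3). mt-Nd4 was lowest in sham 1 and highest in sham 2, so the sham mice spanned both other groups. The values of mt-Nd4l were 846, 987 and 950.4 (sham 1 to 3), 943, 821 and 980.2 (ICH 1 to 3), and 1012, 1009.6 and 866 (feb 1 to 3), a spread in which every group overlapped every other. mt-Nd2 was lower, with 491, 543 and 539.8 (sham 1 to 3), 512, 462 and 536 (ICH 1 to 3), and 514, 589 and 459 (feb 1 to 3). mt-Cytb, the cytochrome b subunit of complex III, had 1196, 1487 and 1268 (sham 1 to 3), 1329, 1278 and 1429 (ICH 1 to 3), and 1354, 1445 and 1292 (feb 1 to 3), also with overlap among all 3 groups.

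A run of 7 neighboring genes, from mt-Ts1 to mt-Co3, was almost empty in the deposited table, with mean levels from 0.123 to 11.8 RPKM. It included core subunits of complexes IV and V. mt-Co2 (MT:7013-7696) had an RPKM of 7.62, 6.38 and 7.54 (sham 1 to 3), 7.46, 4.61 and 6.98 (ICH 1 to 3), and 5.25, 9.21 and 5.58 (feb 1 to 3). mt-Atp6 (MT:7927-8607), the proton channel subunit of ATP synthase, had 12.9, 11.7 and 11.9 (sham 1 to 3), 9.24, 6.98 and 9.64 (ICH 1 to 3), and 8.60, 14.9 and 10.8 (feb 1 to 3). mt-Atp8, which overlaps mt-Atp6 by 43 bases, had 7.97, 11.4 and 9.77 (sham 1 to 3), 11.8, 6.90 and 11.4 (ICH 1 to 3), and 9.07, 10.1 and 10.2 (feb 1 to 3), and mt-Co3 (MT:8607-9390) had 6.65, 10.2 and 6.62 (sham 1 to 3), 9.64, 9.51 and 8.23 (ICH 1 to 3), and 7.81, 5.002 and 7.02 (feb 1 to 3). All 4 were far below mt-Co1, whose product works in the same complex as those of mt-Co2 and mt-Co3.

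**Figure D1:**
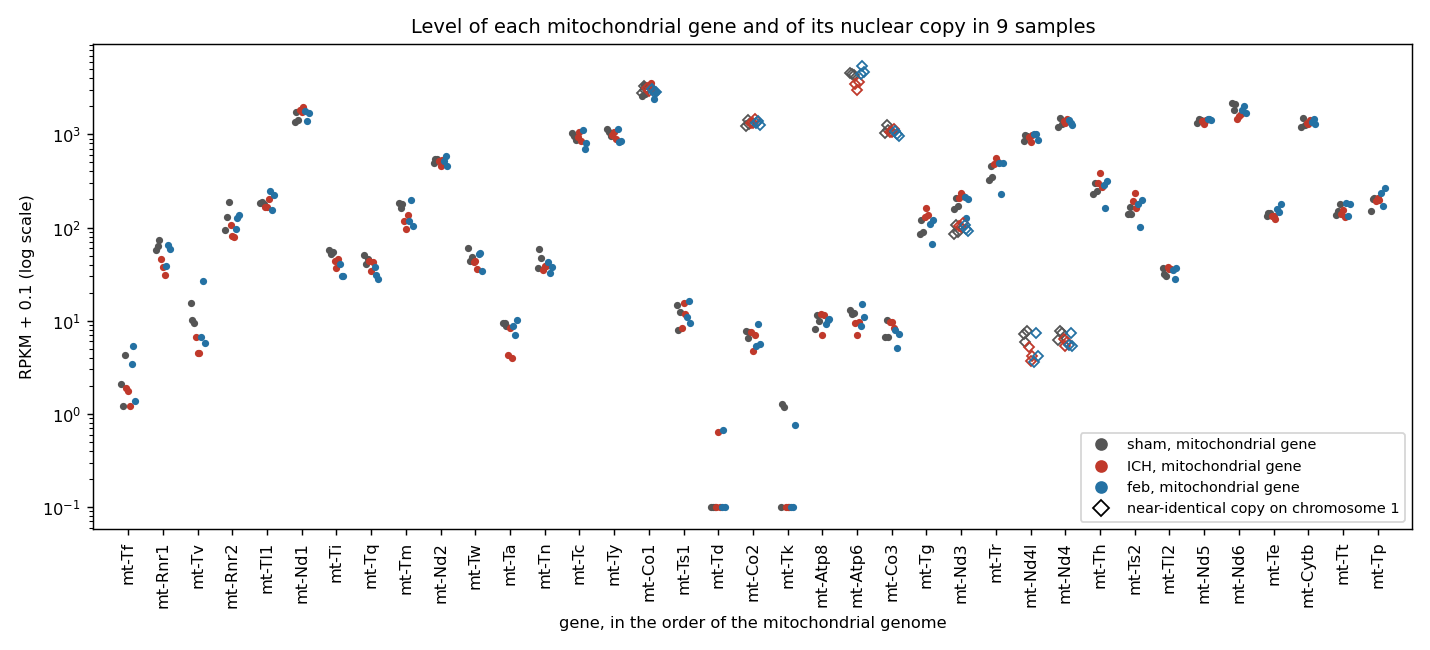
RPKM plus 0.1 on a log axis for the 37 mitochondrial genes in genome order, 1 filled point per mouse, colored by group, with open diamonds for the near-identical nuclear copy of 7 genes. From mt-Ts1 to mt-Co3 the filled points have means of at most 11.8 RPKM per gene, while the diamonds of mt-Co2, mt-Atp6, and mt-Co3 lie at means of 1334, 4224, and 1079.

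Most reads of this stretch stood on nuclear copies in the table. Mitochondrial DNA has been inserted into nuclear chromosomes during evolution, and one such insertion lies on chromosome 1. The mitochondrial transcripts of GENCODE M21 (GRCm38) were searched against its nuclear transcripts, and 7 genes between chr1:24611535-24616197, a stretch of 4663 bases, matched mitochondrial genes at 99% or more over at least 200 bases. They correspond to MT:6390-11042, or 4653 bases, which also hold 5 tRNA genes (mt-Ts1, mt-Td, mt-Tk, mt-Tg, and mt-Tr) and 6 whole mRNA genes. In 5 of the 7 pairs every aligned base was identical, and in the other 2 pairs 1 base differed. The first bases of both unequal pairs are shown because they hold the bases at which an aligned gene and its copy differ. The differing base is in capitals, each line runs 5′ to 3′ along the gene, and positions count from 1 at the 5′ end of the mitochondrial gene.
mt-Co1, from base 1063, MT:6390-6423 plus strand: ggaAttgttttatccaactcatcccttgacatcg
Gm29216, chr1:24616155-24616188 minus strand: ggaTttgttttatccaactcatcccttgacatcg
mt-Nd3, from base 1, MT:9459-9491 plus strand: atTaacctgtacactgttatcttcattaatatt
Gm28438, chr1:24613087-24613119 minus strand: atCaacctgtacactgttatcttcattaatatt
The substitutions are A1066T in the pair of mt-Co1 and Gm29216 and T3C in the pair of mt-Nd3 and Gm28438.

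The division of reads between gene and copy differed from pair to pair. Gm28661, identical to mt-Co2 over 681 bases, had a mean of 1334 RPKM and between 99.3% and 99.6% of the reads of the pair. Gm10925, identical to mt-Atp6 over 678 bases, had a mean of 4224 and between 99.7% and 99.8% of the reads. For Gm28437, identical to mt-Co3 over 783 bases, the mean was 1079 and the share between 99.1% and 99.5%. The other identical pairs had the opposite division. Gm10222, the copy of mt-Nd4l, had a mean of 5.36 and between 0.338% and 0.828% of the reads, and Gm28439, the copy of the first 876 bases of mt-Nd4, had 6.24 and between 0.240% and 0.354%. Of the 2 unequal pairs, Gm29216 had a mean of 3015 and between 21.3% and 27.8% of the reads, and Gm28438 had 98.5 and between 30.04% and 42.8%. Gm29216 matches only bases 1063 to 1545 of mt-Co1, 483 of its 1545 bases, while the share counts the reads of the whole gene. The share of reads on the copy within the matching part of mt-Co1 is therefore not known from these values. How reads that match several places were handled is not given in the sources used here, and Gm10222 and Gm28439 were named after their values were seen.

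**Figure D2:**
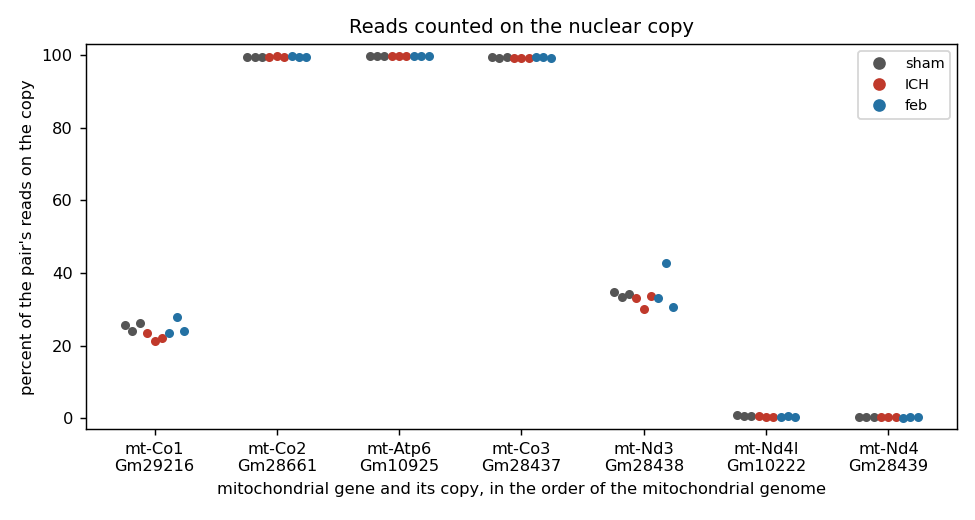
Percent of the reads of each gene-and-copy pair that were counted on the copy on chromosome 1, 1 point per mouse, colored by group, in the order of the mitochondrial genome. The copies of mt-Co2, mt-Atp6, and mt-Co3 hold over 99% in all 9 mice, those of mt-Nd4l and mt-Nd4 under 1%, and those of mt-Co1 and mt-Nd3 lie between. The copy of mt-Co1 matches only 483 of its 1545 bases, while the percent counts the reads of the whole gene.

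With the reads of gene and copy added, an alternative chosen after seeing the data, the order of the mRNA genes changed. mt-Atp6 then had the highest level of the 13 mRNA genes, with a mean of 4216 RPKM, and was followed by mt-Co1 with 3996. mt-Co2 and mt-Co3 had 1335 and 1086, near mt-Cytb and mt-Nd4. mt-Nd3, a small complex I subunit, had a deposited RPKM of 158, 209.9 and 168 (sham 1 to 3), 206, 232 and 216 (ICH 1 to 3), and 211, 127 and 204 (feb 1 to 3), and its mean was 192 as deposited and 290.1 with the copy. For mt-Atp8 (mean 9.85) the search returned no copy, but it asked for at least 200 aligned bases and this gene has 204. Its position, MT:7766-7969, lies inside the stretch MT:6390-11042, so its reads on chromosome 1 could not be added. mt-Nd1, mt-Nd2, mt-Nd5, mt-Nd6, and mt-Cytb have no copy at 99% identity. The near-identical copies took 0.522% to 0.686% of all counted reads, beside 1.26% to 1.54% on the 13 mitochondrial mRNA genes.

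Among the tRNA genes, levels spanned from a mean of 0.123 RPKM in mt-Td to 991 in mt-Ty. The tRNA genes are 59 to 75 bases long, shorter than the library products that the study enriched by size. Whether their reads came from mature tRNAs or from longer precursors was not tested, so a value given for a tRNA is that of reads counted on its gene. The 6 tRNA genes with the highest means are shown with their anticodons in capitals, 5′ to 3′ along the tRNA, from the GENCODE M21 transcripts (GRCm38), because mt-Ty and mt-Tc alone held 41.5% to 53.7% of the tRNA reads in each mouse.
mt-Ty, MT:5260-5326 minus strand: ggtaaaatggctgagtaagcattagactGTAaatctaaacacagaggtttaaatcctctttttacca
mt-Tc, MT:5192-5257 minus strand: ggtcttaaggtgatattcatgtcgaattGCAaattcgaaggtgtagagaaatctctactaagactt
mt-Tr, MT:9808-9875 plus strand: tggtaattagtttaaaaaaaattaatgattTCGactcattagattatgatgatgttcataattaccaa
mt-Th, MT:11546-11612 plus strand: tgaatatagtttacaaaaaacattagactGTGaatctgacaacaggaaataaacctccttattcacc
mt-Tp, MT:15356-15422 minus strand: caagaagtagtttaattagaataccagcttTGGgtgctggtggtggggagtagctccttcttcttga
mt-Tl1, MT:2676-2750 plus strand: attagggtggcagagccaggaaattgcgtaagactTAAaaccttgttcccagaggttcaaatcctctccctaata
mt-Ty, the tRNA for tyrosine, had an RPKM of 1144, 1068 and 960.0 (sham 1 to 3), 978, 1066 and 884 (ICH 1 to 3), and 1152, 821 and 848 (feb 1 to 3). mt-Tc, for cysteine, had 1045, 967 and 876 (sham 1 to 3), 947, 1062 and 856 (ICH 1 to 3), and 1121, 693 and 799 (feb 1 to 3), and these neighbors overlapped in level in every group. mt-Tr, for arginine, followed with 325, 461 and 352 (sham 1 to 3), 479, 561 and 510.4 (ICH 1 to 3), and 494, 229.5 and 496 (feb 1 to 3). It was lowest in feb 2, as was mt-Th, for histidine, with 229, 297 and 246 (sham 1 to 3), 302, 385 and 269.6 (ICH 1 to 3), and 289, 160.2 and 317 (feb 1 to 3). mt-Tp, for proline, had 152, 202 and 207 (sham 1 to 3), 194, 208 and 198 (ICH 1 to 3), and 235, 169 and 268 (feb 1 to 3), and mt-Tl1, for leucine, had 182, 186 and 178 (sham 1 to 3), 166, 168 and 201 (ICH 1 to 3), and 245, 156 and 223 (feb 1 to 3), with overlap between the 2 genes. At the other end, mt-Td and mt-Tk, which flank mt-Co2, had at most 1 and 2 reads in any mouse, so no change was read for either.

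Shares of all counted reads were compared first, since they sum a whole class. For mRNA the share was 1.37% ± 0.134 (sham; SD, n = 3), 1.47% ± 0.0639 (ICH), and 1.38% ± 0.0817 (feb), and the groups overlapped. The tRNA genes took 0.0270% ± 0.00124, 0.0275% ± 0.00211, and 0.0259% ± 0.00474 in the same order. On the rRNA genes it was 0.0205%, 0.0263%, and 0.0367% (sham 1 to 3), 0.0211%, 0.0163%, and 0.0155% (ICH 1 to 3), and 0.0188%, 0.0261%, and 0.0270% (feb 1 to 3). The 95% Wilson interval of the smallest of these shares, that of ICH 3, ran from 0.0150% to 0.0160%, and it covers counting error only. No share passed the two-sided exact permutation test at 0.05, which cannot go below 0.1 with 3 mice against 3. In ICH against sham, feb against ICH, and feb against sham, p was 0.3, 0.3, and 1 for mRNA, 0.2, 0.2, and 0.5 for rRNA, and 0.8, 0.8, and 0.8 for tRNA.

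**Figure D3:**
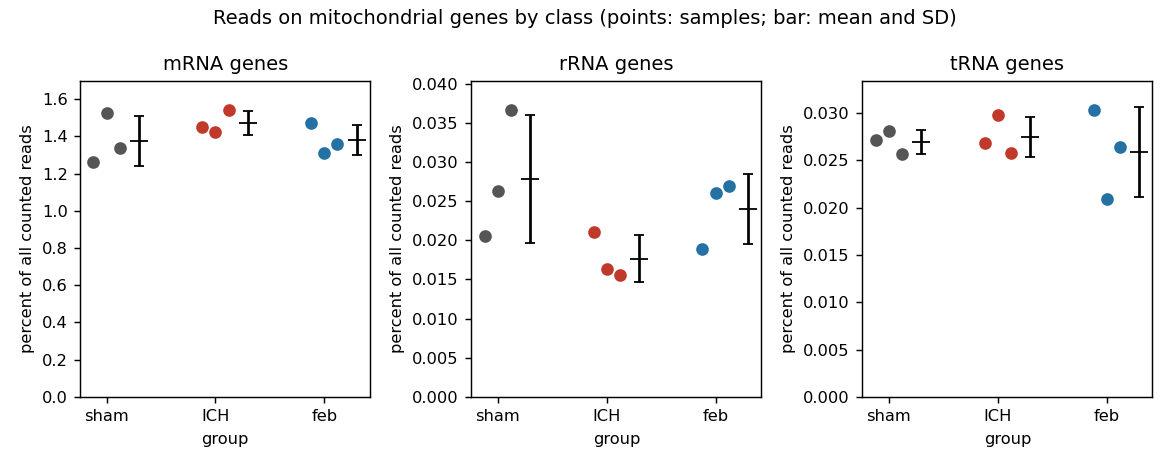
Percent of all counted reads on the mitochondrial mRNA, rRNA, and tRNA genes in each mouse, in 3 panels with axes that start at 0. Points are mice and the bar is the mean and SD of 3 mice. The rRNA share was 0.0155% to 0.0211% in the ICH mice and 0.0205% to 0.0367% in the sham mice, and the other classes overlap more.

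Single genes were tested with limma on log2(RPKM + 0.1), over 29025 genes that reached 0.1 RPKM in 3 or more mice. The filter kept 36 of the 37 mitochondrial genes and left out mt-Td. Changes are log2 differences on this scale with their standard error (SE), which understate the change of genes near 0.1 RPKM, and p-values were adjusted by the Benjamini-Hochberg method across the 29025 genes. A gene is said to have risen or fallen, and counted as called, where the unadjusted p was under 0.05. The labels number the mice of a group and say no more of how they relate, so p-values measure only the spread between these samples. The 3 comparisons share samples, ICH mice serving in 2 of them, so the changes of 1 gene in different comparisons are not independent.

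Between ICH and sham mice, both rRNA genes, 2 mRNA genes, and 3 tRNA genes fell in the ICH group, and 1 tRNA gene rose. These are 8 of the 36 genes tested (22.2%), against 12.3% of all 29025 genes with an unadjusted p under 0.05. Genes that fell were 7 of 36, beside 4.42% of all genes, and the 1 that rose compares with 7.88%. None passed adjustment in limma (lowest adjusted p = 0.334; 0.0241% of all genes passed), none changed over 2-fold with an unadjusted p under 0.05 (2.53% of all genes did), and limma voom on the recovered reads called 8 genes by unadjusted p and 0 by adjusted p. The groups did not overlap in 10 of 36 genes (19.4% of all genes), 7 of them lower (6.22%) and 3 higher (13.2%) in the ICH group. The median change of the 36 genes was -0.05, against 0.08 over all genes. With the samples scaled to equal medians the latter moved to -0.03 and the former to -0.16, and 11 genes fell and 0 rose, while after quantile normalization 5 fell and 2 rose. Without sham 1, sham 3, ICH 1, ICH 2, or ICH 3 (in this order), the count of 8 became 5, 3, 4, 3, and 5, and with the replicate number as a block it was 4. Over all 29025 genes the 3570 calls became 2039, 1882, 2656, 2256, and 3746 in the same order, and 2771 with the block. They were 3214 with equal medians and 3371 after quantile normalization.

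**Figure D4:**
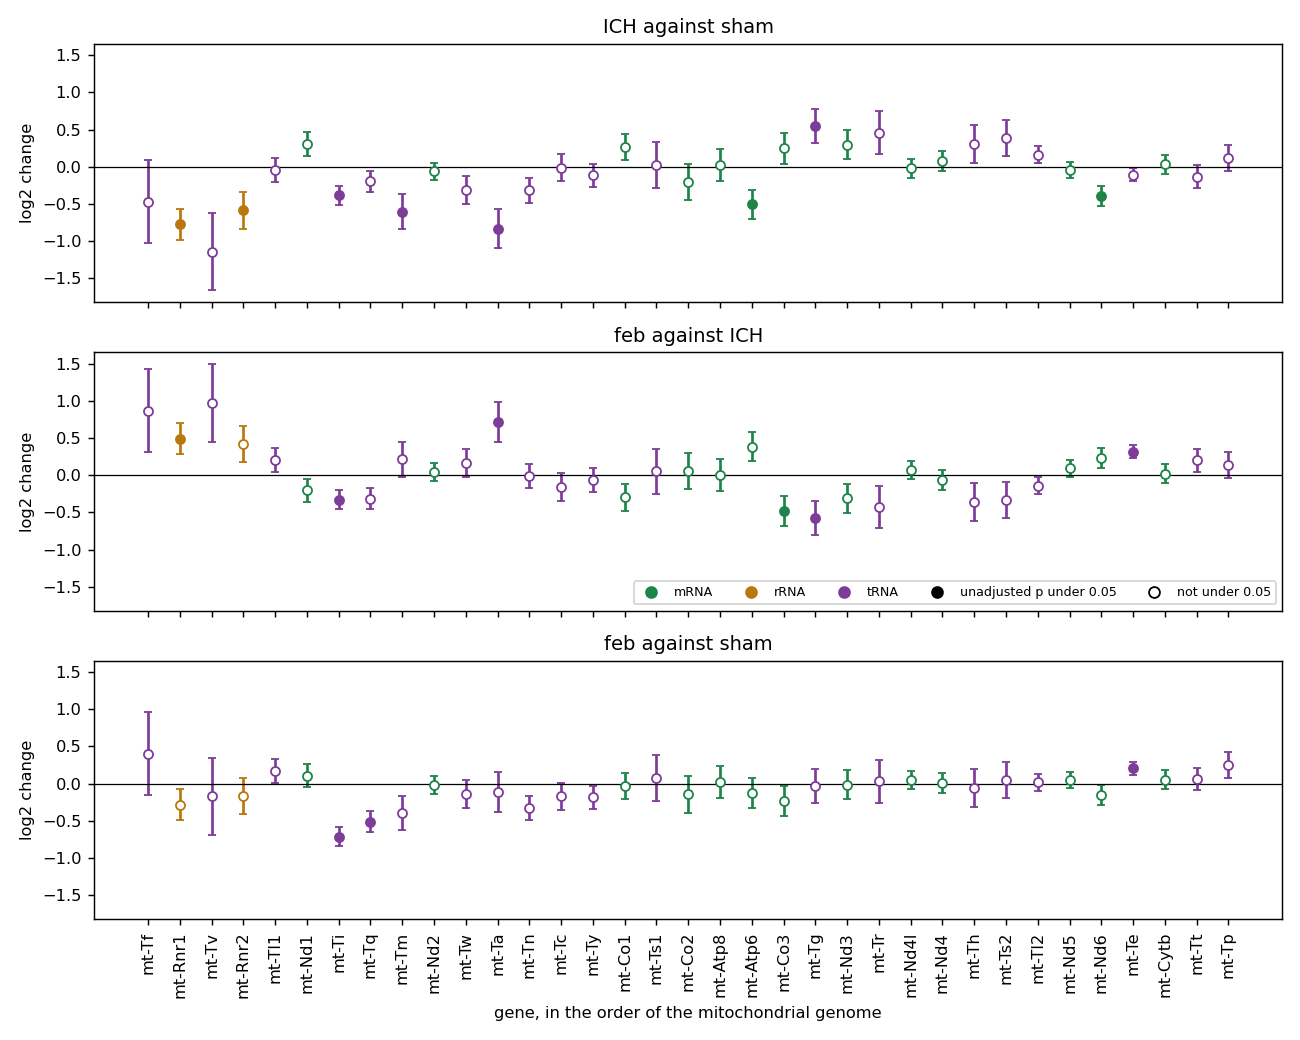
Log2 change with its standard error for the tested genes other than mt-Tk in genome order, in 3 panels for ICH against sham, feb against ICH, and feb against sham. Filled points have an unadjusted p under 0.05 and colors mark the class. In the upper panel 7 of the 8 filled points are below 0.

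Both rRNA genes fell in the ICH group, and mt-Rnr1 had the lowest p-value of the 36 genes in this comparison. mt-Rnr1 (MT:70-1024), the rRNA of the small ribosomal subunit, had an RPKM of 57.7, 63.2 and 72.6 (sham 1 to 3), 45.3, 37.6 and 31.1 (ICH 1 to 3), and 38.7, 64.3 and 59.4 (feb 1 to 3). Every ICH mouse was below every sham mouse, and the log2 change was -0.77 (SE 0.21) with adjusted p = 0.334. mt-Rnr2 (MT:1094-2675), the rRNA of the large subunit, had 94.9, 128 and 188 (sham 1 to 3), 106, 80.5 and 79.3 (ICH 1 to 3), and 95.7, 126 and 135 (feb 1 to 3). Here ICH 1 reached above sham 1, and the change was -0.59 (SE 0.25) with adjusted p = 0.396, a call that was lost in 6 of the 9 repeats that each left out 1 mouse. mt-Rnr1 stayed under 0.05 in all 9 repeats and in all 13 other settings tried.

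Nuclear rRNA and structural RNA genes were compared beside these rRNAs. The libraries had been depleted of rRNA, and the mitochondrial rRNA left was 0.0155% to 0.0367% of the reads. All 13 tested nuclear rRNA and structural RNA genes were lower in the ICH group than in the sham group, 7 of them with p under 0.05 (4.42% of all genes fell), with a median log2 change of -0.57. The count of 7 was 3 without sham 3 or ICH 2, 4 without ICH 3, without a filter, or with the replicate number as a block, and 12 with limma voom. After quantile normalization it was 4, with 2 of the 13 genes higher in the ICH group and a median of -0.35. Their summed level was 157947 to 179153 RPKM (sham), 125051 to 127223 (ICH), and 129116 to 177420 (feb), and feb 2 had the highest of the feb values. Among them, Rn7s6, a 7S RNA gene, changed by -0.76 (SE 0.24, adjusted p = 0.347), and Rny3, a Y RNA, by -1.77 (SE 0.51, adjusted p = 0.345). Their part in the result on mt-Rnr1 and mt-Rnr2 was not tested.

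Of the 13 mRNA genes, mt-Nd6 and mt-Atp6 fell in the ICH group. mt-Nd6 had an RPKM of 2176, 1845 and 2104 (sham 1 to 3), 1462, 1576 and 1633 (ICH 1 to 3), and 1817, 2001 and 1693 (feb 1 to 3). The ICH mice were below all others, with a log2 change of -0.39 (SE 0.13) and adjusted p = 0.359. mt-Atp6 changed by -0.51 (SE 0.20, adjusted p = 0.386) on at most 259 reads per mouse. Its copy Gm10925, which held over 99% of the reads of the pair, had 4574, 4429.8 and 4378 (sham 1 to 3), 3449.6, 2997 and 3642 (ICH 1 to 3), and 4440.4, 5411 and 4690.3 (feb 1 to 3). It changed by -0.41 (SE 0.17, adjusted p = 0.397), and the sum of both changed by -0.41 (SE 0.17, adjusted p = 0.399), again with the ICH mice below all sham mice. After quantile normalization the change of Gm10925 was -0.09 (adjusted p = 0.767), and its call was lost in 8 of the 9 repeats without 1 mouse.

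The remaining 11 mRNA genes did not pass the test. mt-Nd1, with 1343, 1748 and 1431 (sham 1 to 3), 1848, 1755 and 1955 (ICH 1 to 3), and 1793, 1390.3 and 1678 (feb 1 to 3), was higher in every ICH mouse than in every sham mouse, and its change was 0.31 (SE 0.16, adjusted p = 0.438). mt-Co1 had 0.27 (SE 0.18, adjusted p = 0.537) and mt-Nd3 0.30 (SE 0.20, adjusted p = 0.527). For mt-Nd5, mt-Nd4, mt-Nd4l, mt-Nd2, and mt-Cytb the changes lay between -0.06 and 0.08. For mt-Co2, mt-Co3, and mt-Atp8 they were -0.20 (SE 0.24, adjusted p = 0.730), 0.25 (SE 0.21, adjusted p = 0.612), and 0.02 (SE 0.21, adjusted p = 0.977), and with the copies added mt-Co2 and mt-Co3 had 0.06 (SE 0.12, adjusted p = 0.848) and -0.06 (SE 0.12, adjusted p = 0.852).

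Among the 21 tested tRNA genes, 4 changed between the ICH and sham groups. The sequences of 3 of them, and of 2 genes called in the other comparisons, are printed to show how little sequence carries each value, with the anticodon in capitals, 5′ to 3′ along the tRNA, from GENCODE M21 (GRCm38). The fourth, mt-Tm (MT:3845-3913 plus strand, for methionine), is given by position alone.
mt-Ti, MT:3706-3774 plus strand: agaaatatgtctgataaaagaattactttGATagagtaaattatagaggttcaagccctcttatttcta
mt-Tq, MT:3772-3842 minus strand: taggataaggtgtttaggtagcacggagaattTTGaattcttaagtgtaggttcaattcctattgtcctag
mt-Ta, MT:5018-5086 minus strand: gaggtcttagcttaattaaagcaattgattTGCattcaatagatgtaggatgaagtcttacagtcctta
mt-Tg, MT:9391-9458 plus strand: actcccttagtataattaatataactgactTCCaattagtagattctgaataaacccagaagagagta
mt-Te, MT:14071-14139 minus strand: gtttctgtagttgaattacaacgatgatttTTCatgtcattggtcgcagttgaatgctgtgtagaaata
mt-Ti, the tRNA for isoleucine, overlaps mt-Tq, for glutamine, by 3 bases on the other strand, and mt-Tq lies between mt-Ti and mt-Tm. The RPKM of mt-Ti was 56.9, 52.1 and 54.1 (sham 1 to 3), 43.2, 36.9 and 45.4 (ICH 1 to 3), and 40.5, 29.9 and 30.2 (feb 1 to 3), from 48 to 116 reads, and its change in ICH against sham was -0.38 (SE 0.13, adjusted p = 0.357). All ICH and feb mice were below all sham mice. mt-Tm had 184, 162 and 179 (sham 1 to 3), 116, 95.9 and 137 (ICH 1 to 3), and 116, 197 and 104 (feb 1 to 3) and changed by -0.60 (SE 0.23, adjusted p = 0.383). mt-Tq, with 50.1, 41.0 and 46.1 (sham 1 to 3), 43.1, 33.7 and 43.0 (ICH 1 to 3), and 37.8, 30.7 and 28.1 (feb 1 to 3), had a log2 difference of -0.20 (SE 0.14, adjusted p = 0.555), which did not pass.

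mt-Ta, for alanine, had 9.32, 9.43 and 8.76 (sham 1 to 3), 4.14, 8.27 and 3.87 (ICH 1 to 3), and 8.76, 6.89 and 10.1 (feb 1 to 3), from 7 to 19 reads, and changed by -0.83 (SE 0.27, adjusted p = 0.347) in ICH against sham. ICH 1 and ICH 3 were far below the sham mice, and ICH 2 was just below the lowest of them. mt-Tg, for glycine, was the single gene that rose. Its RPKM was 84.1, 122 and 88.9 (sham 1 to 3), 129, 163 and 135 (ICH 1 to 3), and 108, 66.4 and 119.9 (feb 1 to 3), every ICH mouse was above every sham mouse, and the change was 0.55 (SE 0.23, adjusted p = 0.398), a call lost in 6 of the 9 repeats without 1 mouse. mt-Tg lies in the stretch copied on chromosome 1. The other tested tRNA genes did not pass. mt-Tv, for valine, which lies between the 2 rRNA genes, had 15.2, 9.98 and 9.28 (sham 1 to 3), 6.51, 4.41 and 4.43 (ICH 1 to 3), and 6.57, 26.4 and 5.65 (feb 1 to 3), with every ICH mouse below every sham mouse, and its change was -1.14 (SE 0.52, adjusted p = 0.413).

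Between feb and ICH mice, 3 genes rose in the feb group (mt-Rnr1, mt-Ta, and mt-Te) and 3 fell (mt-Ti, mt-Tg, and mt-Co3). These are 6 of 36 genes (16.7%), against 11.1% of all genes, with 4.90% of all genes rising and 6.16% falling. None passed adjustment in limma (lowest adjusted p = 0.300; 0.00689% of all genes passed) or changed over 2-fold, for which the share of all genes was 2.43%, and limma voom called 5 by unadjusted p and 0 by adjusted p. The groups did not overlap in 6 of the 36 genes (17.2% of all genes), 3 higher (7.04%) and 3 lower (10.1%) in the feb group. The median change was 0.05, against -0.01 over all genes. With eBayes without trend 2 genes were called, and without ICH 1 or ICH 3 the number was 3 and 1. The 3212 calls over all genes became 2980, 2991, and 3113 in the same order.

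mt-Te, the tRNA for glutamate, gave the lowest p-value of the 36 genes in this comparison. It had 132, 144 and 143 (sham 1 to 3), 134, 132 and 122 (ICH 1 to 3), and 158, 148 and 178 (feb 1 to 3), with every feb mouse above every ICH mouse, and changed by 0.31 (SE 0.09, adjusted p = 0.300). The call held in all 9 repeats that left out 1 mouse. mt-Te lies next to mt-Nd6 on the same strand, and mt-Nd6, also higher in every feb mouse than in every ICH mouse, had a difference of 0.24 (SE 0.13, adjusted p = 0.533), which did not pass. mt-Ta changed by 0.72 (SE 0.27, adjusted p = 0.398), and its feb and ICH mice overlapped. mt-Rnr1 changed by 0.49 (SE 0.21, adjusted p = 0.437), with feb 1 inside the ICH range and feb 2 and feb 3 above it, and the call was lost in 6 of the 9 repeats, while mt-Rnr2 did not pass at 0.42 (SE 0.25, adjusted p = 0.546). The nuclear rRNA and structural RNA genes had no common direction here, with 8 of 13 higher, 5 lower, 1 called, and a median change of 0.03.

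Of the genes that fell, mt-Tg changed by -0.57 (SE 0.23, adjusted p = 0.418) and all feb mice were below the lowest ICH mouse. Without ICH 2, ICH 3, or feb 2, the lowest feb mouse, its change no longer passed. mt-Ti changed by -0.33 (SE 0.13, adjusted p = 0.415), so it was lower still in the feb group than in the ICH group, although feb 1 lay inside the ICH range. mt-Co3 changed by -0.48 (SE 0.21, adjusted p = 0.447) on 99 to 208 reads, and this call was lost in 7 of the 9 repeats without 1 mouse. With the reads of its copy Gm28437 added, over 99% of the pair, the change was -0.10 (SE 0.12, adjusted p = 0.774), and the feb and ICH mice overlapped. mt-Atp6 and its copy were higher in the feb group. mt-Atp6 alone did not pass at 0.38 (SE 0.20, adjusted p = 0.499), while Gm10925 changed by 0.53 (SE 0.17, adjusted p = 0.353) and their sum by 0.53 (SE 0.17, adjusted p = 0.357), from 3357 ± 331 RPKM in the ICH group (SD, n = 3) to 4837 ± 505 in the feb group.

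**Figure D5:**
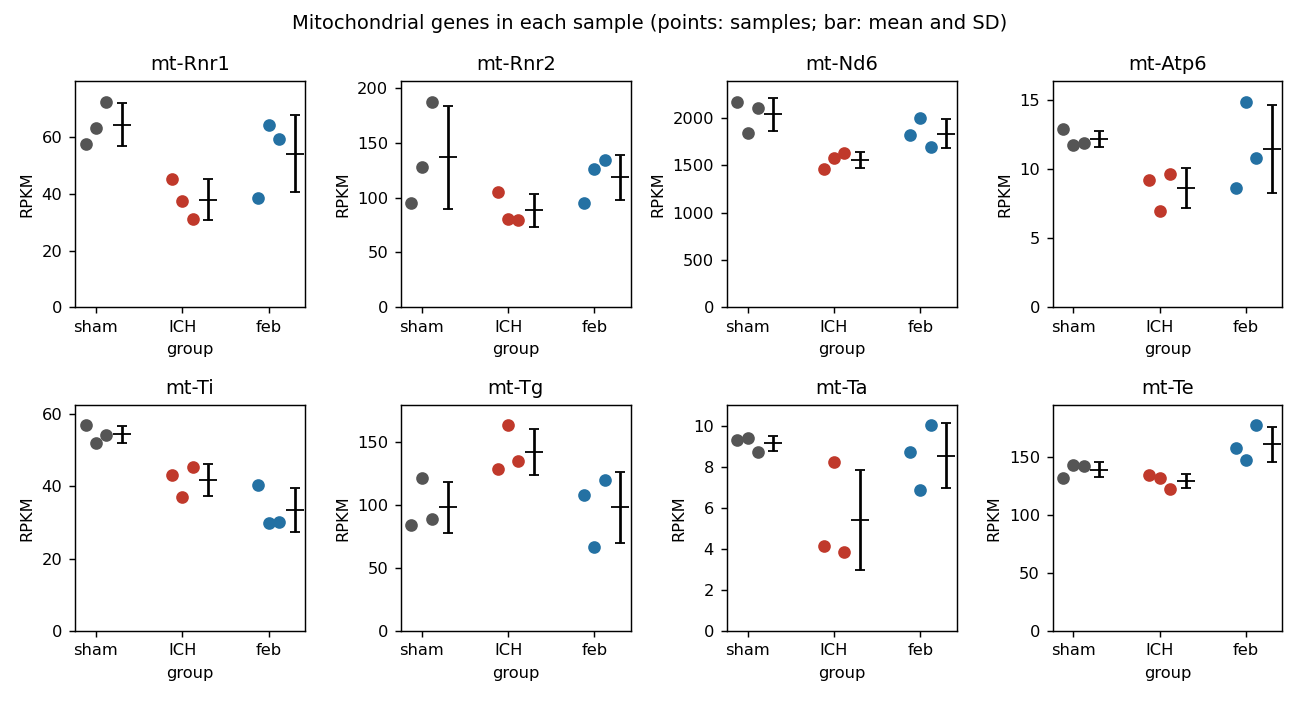
RPKM of 8 mitochondrial genes in each mouse, with 1 panel per gene and axes that start at 0. Points are mice and the bar is the mean and SD of 3 mice. The ICH mice are the lowest for mt-Nd6, the sham mice the highest for mt-Ti, and the feb mice the highest for mt-Te.

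Between feb and sham mice, 3 of 36 genes (8.33%) were called, against 8.54% of all genes. mt-Ti and mt-Tq fell, beside 2.90% of all genes falling, and mt-Te rose, beside 5.63% rising. These were also the 3 genes without overlap between the groups (12.7% of all genes), 1 higher (7.78%) and 2 lower (4.90%). With equal medians 3 fell and 0 rose. mt-Ti changed by -0.71 (SE 0.13, adjusted p = 0.378), the lowest p-value of any mitochondrial gene in the 3 comparisons, where 0.00345% of all genes passed adjustment in limma. mt-Tq changed by -0.51 (SE 0.14, adjusted p = 0.565). Both calls held without each mouse in turn and in the 13 other settings. mt-Te changed by 0.21 (SE 0.09, adjusted p = 0.583), and this call was lost in 8 of 9 repeats without 1 mouse. No gene changed over 2-fold (2.20% of all genes), limma voom called 2 by unadjusted p and 0 by adjusted p, and without feb 2 the count of 3 became 8. Without feb 2 the calls over all 29025 genes also rose, from 2478 to 4081. mt-Rnr1 and mt-Rnr2 did not pass, at -0.28 (SE 0.21, adjusted p = 0.709) and -0.16 (SE 0.25, adjusted p = 0.858), while 5 of the 13 nuclear rRNA and structural RNA genes fell.

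The copies of mitochondrial genes in the nucleus were compared in the same fit. In 5 of the 7 near-identical pairs every aligned base was identical, and in 2 pairs 1 base differed. Reads within such identical stretches cannot be told by sequence from reads of mitochondrial RNA. The values below are therefore reads as they were counted, and their origin on chromosome 1 was not tested. Reads on the 7 near-identical copies made up 0.634% ± 0.0255 (sham; SD, n = 3), 0.562% ± 0.0371 (ICH), and 0.646% ± 0.0349 (feb) of all reads. The ICH mice were below all sham and all feb mice, and the two-sided exact permutation p was 0.1, the smallest possible, in both comparisons. The copies did not share this direction. Singly, 3 of the 7 were higher and 4 lower in ICH against sham, with a median log2 change of -0.06. In feb against ICH 3 were higher and 4 lower, with a median of -0.05. Gm10925 had the most reads of the 7 in every mouse and weighed most in the share. The copies and the mRNA genes together took 2.01% ± 0.160, 2.03% ± 0.0989, and 2.03% ± 0.0662 of the reads, and these overlapped (exact permutation p of 0.8 for ICH against sham and 0.9 for feb against ICH). Gm10925 alone among the near-identical copies was called in both comparisons, and Gm10222 was called in ICH against sham at -0.68 (SE 0.26, adjusted p = 0.382). In ICH against sham the call of Gm10925 held only without feb 2 among the 9 repeats that left out 1 mouse, and that of Gm10222 was lost without sham 1, sham 3, ICH 2, or ICH 3. The call of Gm10925 in ICH against sham was also lost without a filter on low values, after quantile normalization, and in the fit of 2 groups. With the replicate number as a block both calls were lost, as was the call of Gm10925 in feb against ICH. The latter was otherwise lost without ICH 2 and without a filter on low values.

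The 8 less similar nuclear copies, with 90% to under 99% identity, lie on chromosomes 2, 4, 11, and 13. Several of them are close neighbors on chromosomes 2 and 4, so they are not all separate places in the genome. The tested copy with the lowest mean had 0 to 9 reads per mouse. Of the 7 that passed the filter, all 7 were lower in the ICH group than in the sham group, 3 with p under 0.05 (4.42% of all genes fell), and all 7 were higher in the feb group than in the ICH group, 4 with p under 0.05 (4.90% of all genes rose). The 3 calls became 1 without sham 3 or ICH 2 and 5 without feb 2, and the 4 calls 2 without ICH 1 and 0 without ICH 2. Gm13341 on chromosome 2, related to mt-Co2, had 67.7, 58.3 and 74.6 (sham 1 to 3), 42.4, 39.5 and 42.05 (ICH 1 to 3), and 53.0, 102 and 49.3 (feb 1 to 3). It changed by -0.69 (SE 0.24, adjusted p = 0.367) in ICH against sham and by 0.64 (SE 0.24, adjusted p = 0.405) in feb against ICH, where feb 2 was far above the other feb mice. Without feb 2 the latter change was 0.31. Its neighbor Gm13340, related to mt-Co1 and named after its values were seen, had 48.8, 44.4 and 45.2 (sham 1 to 3), 26.5, 23.2 and 27.9 (ICH 1 to 3), and 32.0, 64.4 and 32.8 (feb 1 to 3). The changes of Gm13340 were -0.83 (SE 0.24, adjusted p = 0.345) and 0.66 (SE 0.24, adjusted p = 0.391), and 0.33 without feb 2 in the latter. In the fit of all 9 mice no copy, near-identical or not, had an adjusted p under 0.3. For ICH against sham the adjusted p of Gm13340 was 0.0750 in the fit of 2 groups and 0.0321 without feb 2, the single setting in which one of these less similar copies passed adjustment.

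A pair of ratios was taken within each library, where scaling between libraries cancels. The first set mt-Nd6, from the minus strand, against the other 12 mRNA genes, all on the plus strand. The strand setting of the counting is not given, and whether reads of the opposite strand were counted on mt-Nd6 was not tested. As a ratio of RPKM it was 0.238, 0.163, and 0.215 (sham 1 to 3), 0.133, 0.149, and 0.141 (ICH 1 to 3), and 0.165, 0.206, and 0.168 (feb 1 to 3). The ICH mice were below all other mice. The log2 difference was -0.52 for ICH against sham and 0.34 for feb against ICH, both with a two-sided exact permutation p of 0.1, the smallest possible, and -0.18 for feb against sham (exact p = 0.4). With the nuclear copies added to the denominator the differences were -0.38, 0.19, and -0.19.

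The second ratio set the summed RPKM of the 13 mitochondrial mRNA genes against that of 73 nuclear genes for subunits of complexes I, III, IV, and V. It was 3.40, 4.63, and 3.75 (sham 1 to 3), 4.62, 4.40, and 4.63 (ICH 1 to 3), and 4.53, 3.92, and 4.38 (feb 1 to 3). The groups overlapped, and the log2 difference was 0.22 for ICH against sham (exact permutation p = 0.4), -0.09 for feb against ICH (p = 0.2 by the exact permutation test), and 0.13 for feb against sham (exact permutation p = 0.5). With the copies added, the difference for feb against ICH was 0.03, so its direction depended on them.

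Of the 73 nuclear genes for subunits of the same complexes, 28 fell and 1 rose in ICH against sham, with a median log2 change of -0.17, beside 4.42% of all genes falling and 7.88% rising, and 44 did not pass. By complex, 13 of 36 genes fell in complex I, 4 of 9 in complex III, 3 of 11 in complex IV, and 8 of 17 in complex V. Ndufs4, an accessory subunit of complex I, had an RPKM of 43.1, 33.4 and 43.4 (sham 1 to 3), 24.8, 25.1 and 26.9 (ICH 1 to 3), and 31.3, 38.9 and 31.4 (feb 1 to 3), without overlap between the ICH and sham mice, and changed by -0.63 (SE 0.13, adjusted p = 0.284). Uqcr10 of complex III changed by -0.46 (SE 0.15, adjusted p = 0.352), Cox7b of complex IV by -0.48 (SE 0.14, adjusted p = 0.345), and Atp5b, the catalytic beta subunit of ATP synthase, by -0.35 (SE 0.11, adjusted p = 0.347). Cox7c of complex IV was the gene that rose, at 0.29 (SE 0.12, adjusted p = 0.400). The count of 28 was 15 with the replicate number as a block, 16 with eBayes without trend, 9 without sham 1, which also had the highest neuronal marker level, 12 without sham 3, 12 without ICH 1, 14 without ICH 2, and 17 without ICH 3. Over all genes the 3570 calls in either direction were 2771, 3181, 2039, 1882, 2656, 2256, and 3746 in the same order.

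In feb against ICH, 4 of the 73 nuclear genes rose and 5 fell (2 and 1 with equal medians), beside 4.90% and 6.16% of all genes. Ndufs4 rose by 0.40 (SE 0.13, adjusted p = 0.334) and Ndufb4 by 0.23 (SE 0.07, adjusted p = 0.353), while Cox6b1 of complex IV changed by -0.19 (SE 0.07, adjusted p = 0.387) and Usmg5, a small ATP synthase subunit, by -0.26 (SE 0.11, adjusted p = 0.416). In feb against sham, 7 fell and 0 rose (2.90% and 5.63% of all genes), and 4 to 18 fell under the settings that kept all mice. With 1 mouse left out, 26 fell without feb 2, 24 without sham 2, 4 without sham 1, 4 without sham 3, and 3 without feb 3. Over all genes the 2478 calls in either direction became 4081, 3833, 1539, 1461, and 1145 in the same order. Of the 4 genes of complex II, which has no mitochondrially encoded subunit, Sdhc fell in ICH against sham (-0.22, SE 0.09, adjusted p = 0.393) and in feb against sham (-0.32, SE 0.09, adjusted p = 0.565).

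The machinery that makes and translates mitochondrial RNA was described with 150 tested nuclear genes, in lists for transcription and processing, tRNA charging and modification, mitochondrial ribosomal proteins, and biogenesis regulators. The ribosomal protein list was made by name alone, from genes named Mrpl or Mrps and a number, and the function of each was not checked. In ICH against sham 7 rose and 3 fell, beside 7.88% and 4.42% of all genes, a direction that turned to 0 and 10 with equal medians, 2 and 9 with quantile normalization, and 4 and 10 with limma voom. Mtpap, the mitochondrial poly(A) polymerase, had 3.65, 4.07 and 4.36 (sham 1 to 3), 5.19, 4.96 and 4.72 (ICH 1 to 3), and 4.47, 4.20 and 4.17 (feb 1 to 3) and changed by 0.30 (SE 0.10, adjusted p = 0.352). Angel2, of the CCR4 family, changed by 0.44 (SE 0.17, adjusted p = 0.388). Among tRNA enzymes, Mars2, the mitochondrial methionyl-tRNA synthetase, changed by 0.35 (SE 0.14, adjusted p = 0.388) and Trit1, a tRNA isopentenyltransferase, by 0.37 (SE 0.16, adjusted p = 0.404). The ribosomal proteins Mrpl53 and Mrpl23 rose by 0.37 (SE 0.10, adjusted p = 0.345) and 0.42 (SE 0.13, adjusted p = 0.347), and Mrps11 and Mrps5 changed by -0.35 (SE 0.11, adjusted p = 0.347) and -0.34 (SE 0.13, adjusted p = 0.382). Without single mice the count of 10 was 5 (sham 1, sham 3, or ICH 3), 6 (ICH 2), or 17 (sham 2 or feb 2). Over all genes the 3570 calls became 2039, 1882, 3746, 2256, 5371, and 4114 in the same order.

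In feb against ICH, 4 of the 150 genes rose and 13 fell (1 and 9 with equal medians), beside 4.90% and 6.16% of all genes. Of 78 genes named Mrpl or Mrps, 4 rose and 9 fell. Mrpl53 had 9.98, 10.7 and 10.4 (sham 1 to 3), 11.7, 14.9 and 13.8 (ICH 1 to 3), and 10.5, 9.08 and 10.04 (feb 1 to 3), with the feb mice below the ICH mice, and changed by -0.44 (SE 0.10, adjusted p = 0.255). Mrpl36 changed by -0.65 (SE 0.18, adjusted p = 0.301) and Mrpl51 by -0.29 (SE 0.08, adjusted p = 0.309). Rexo2, an exonuclease that degrades short mitochondrial RNAs, changed by -0.39 (SE 0.10, adjusted p = 0.271), and Fastk, which acts on mt-Nd6 mRNA, had 4.79, 5.32 and 4.87 (sham 1 to 3), 5.46, 5.62 and 5.48 (ICH 1 to 3), and 4.10, 4.67 and 4.30 (feb 1 to 3) and changed by -0.34 (SE 0.09, adjusted p = 0.289). Mars2 and Esrra, a nuclear receptor that drives mitochondrial genes, changed by -0.34 (SE 0.14, adjusted p = 0.429) and -0.32 (SE 0.11, adjusted p = 0.354), after 0.24 (SE 0.11, adjusted p = 0.404) for Esrra in ICH against sham. The count of 17 was 10 with equal medians and 11, 9, and 10 without ICH 2, ICH 3, and feb 3. Over all genes the 3212 calls became 2941, 2147, 3113, and 2590 in the same order.

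In feb against sham, 2 of the 150 genes rose and 6 fell (1 and 13 with equal medians, 1 and 11 with quantile normalization, and 1 and 10 without mitochondrial and structural RNA in the read total), beside 5.63% and 2.90% of all genes. Trit1 and Trmu, a thiolating enzyme of mitochondrial tRNAs, rose by 0.54 (SE 0.16, adjusted p = 0.565) and 0.32 (SE 0.14, adjusted p = 0.583), and Lars2, the mitochondrial leucyl-tRNA synthetase, changed by -0.52 (SE 0.19, adjusted p = 0.565). Lars2 had an RPKM of 10.3, 11.9 and 13.6 (sham 1 to 3), 10.97, 8.88 and 7.53 (ICH 1 to 3), and 7.36, 10.5 and 7.15 (feb 1 to 3). The nuclear rRNA gene AY036118, named after its values were seen, took 0.280%, 0.243%, and 0.334% (sham 1 to 3), 0.231%, 0.168%, and 0.133% (ICH 1 to 3), and 0.147%, 0.258%, and 0.142% (feb 1 to 3) of the reads. In both genes sham 3, ICH 1, and feb 2 were the highest of their groups, and the part of rRNA reads in the values of Lars2 was not tested. Of the genes named Mrpl or Mrps 5 fell, and the 4 with the lowest p-values, Mrps21, Mrps36, Mrpl12, and Mrpl54, had changes between -0.42 and -0.24. The count of 8 was 19 without feb 2, 1 without feb 3, 3 without sham 3 or feb 1, 4 without sham 1, and 5 without ICH 3. Over all genes the 2478 calls became 4081, 1145, 1461, 2276, 1539, and 2336 in the same order.

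The main regulators of mitochondrial transcription and RNA stability did not pass in any comparison. Tfam, which packages and transcribes the genome, had 6.46, 5.19 and 5.88 (sham 1 to 3), 6.03, 5.92 and 5.60 (ICH 1 to 3), and 6.18, 5.33 and 5.99 (feb 1 to 3), with a log2 difference of 0.01 (SE 0.11, adjusted p = 0.986) in ICH against sham. For Polrmt, the mitochondrial RNA polymerase, it was -0.08 (SE 0.08, adjusted p = 0.671). Lrpprc and Slirp, which together stabilize mitochondrial mRNAs, had differences of 0.14 (SE 0.08, adjusted p = 0.484) and 0.18 (SE 0.13, adjusted p = 0.551) in ICH against sham and of -0.14 (SE 0.08, adjusted p = 0.542) and -0.16 (SE 0.13, adjusted p = 0.652) in feb against ICH. Ppargc1a, a coactivator of mitochondrial biogenesis, had -0.24 (SE 0.12, adjusted p = 0.448) and 0.15 (SE 0.12, adjusted p = 0.682) in the same comparisons.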

How the data were processed

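The authors trimmed reads with Trimmomatic (0.36), grouped reads by UMI, aligned them to GRCm38, counted them with featureCounts (Subread 1.5.1), and deposited RPKM for all 9 samples in 1 table. Annotation release, strand setting, and the treatment of reads with several matches are not given in the sources used here. RPKM values were divided by the value of 1 read, and 100% of them came out whole (tolerance 0.05 reads), which recovered the reads. 3 reads on 1 kb correspond to 0.102 to 0.130 RPKM. Replicates of a group were not duplicates of 1 library (chi-square per gene of 13.9 to 48.5). Shares have 95% Wilson intervals, which cover counting error only.

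The mitochondrial genes and all lists were chosen with earlier results of these data known. Tests used limma (3.58.1, R 4.3.3; lmFit and eBayes with trend, 1 fit of 9 samples without a block) on log2(RPKM + 0.1), with adjustment over 29025 genes, and two-sided exact permutation tests for single values per sample. edgeR (3.12.1), which the authors used, was not run because the deposited values are RPKM, and limma voom on the recovered reads took its place. The limma step was tested on simulated data. Nuclear copies were found with BLAST (2.17.0). Tables and plots used Python (3.11.15) with numpy (2.4.6), pandas (2.3.3), scipy (1.17.1), and matplotlib (3.10.9).

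Named were all mRNA and rRNA genes, the 6 tRNA genes with the highest mean, and other mitochondrial genes with an unadjusted p under 0.05, then, per nuclear list and comparison, up to 4 genes with the lowest p-values under 0.05, Tfam, Polrmt, Lrpprc, Slirp, Ppargc1a, and the 6 nuclear copies with the highest mean. Gm13340, Gm10222, Gm28439, and AY036118 were named after their values were seen. Alternatives were other pseudocounts (1 and 0.01), other filters (none, and 1 RPKM), equal medians, quantile normalization, other read totals, a fit of 2 groups, no trend, the replicate number as a block, limma voom, copies added (chosen after seeing the data), and each mouse left out.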

Additional observations from a re-analysis of the deposited data

How the results depend on the processing

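No called mitochondrial gene turned its direction under any alternative. Settings other than leaving out a mouse kept such a call 189 times and lost it 32 times, and leaving out a mouse kept it 94 times and lost it 59 times. Only mt-Rnr1 (ICH against sham), mt-Te (feb against ICH), and mt-Ti and mt-Tq (feb against sham) were called throughout. The causes of the changes below were not tested.

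For ICH against sham, with the replicate number as a block, 4 mitochondrial genes were called in place of 8, 1 of them over 2-fold, and 6 machinery genes in place of 10. Equal medians and the fit of 2 groups each gave 2 genes over 2-fold. In the main fit only mt-Tk and mt-Tv differed by over 2-fold between these groups, neither with an unadjusted p under 0.05. mt-Tk had at most 2 reads in any mouse and mt-Tv 8 to 46. For feb against ICH, eBayes without trend called 2 mitochondrial genes, machinery calls fell from 17 to 10 with equal medians and 11 with the block, and the ratio of mitochondrial to nuclear respiratory chain mRNA turned to 0.027 with the copies added (exact permutation p = 0.5). For feb against sham, machinery calls were 14 with equal medians, 4 without trend, and 5 with the block in place of 8, and the mRNA share turned to -0.011 on the log2 scale without mitochondrial and structural RNA in the total.

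Calls over all 29025 genes also moved when 1 mouse was left out. The 3570 calls in ICH against sham became 1882 to 5371. In feb against ICH the 3212 calls became 2147 to 3567, and in feb against sham the 2478 calls became 1145 to 4081. Leaving out 1 mouse gave these ranges. In ICH against sham, mitochondrial genes called were 3 to 11, those over 2-fold 0 to 2 (1 without sham 1, ICH 2, or feb 2, and 2 without feb 3), machinery genes 5 to 17, and the log2 difference of the tRNA share -0.037 (without ICH 2) to 0.071, with -0.008 without sham 3. In feb against ICH they were 1 to 8, 0 to 2 (1 without ICH 2 and 2 without feb 3), 9 to 19, and -0.216 to 0.047 (without feb 2). In feb against sham they were 2 to 8, 0 to 1 (1 without sham 1 or feb 3), 1 to 19, and -0.190 to 0.073 (without feb 2). There the mRNA share ran from -0.052 (without sham 1; -0.014 without sham 3 and -0.043 without feb 1) to 0.086, and the rRNA share from -0.394 to 0.034 (without sham 3). Same-numbered samples deviated from their group means with correlations of -0.127 to 0.019, and differently numbered samples with -0.121 to 0.166. These values gave no sign of pairing by number, but they cannot show that the mice were not paired. Genes with few reads, such as mt-Ta with 7 to 19, are limited by depth.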
